A study of Mus musculus with 36 samples.

Results

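The genes Ifit1, Ifit2, Ifit3, Isg15, Irf7, Usp18, Rtp4, Bst2 and Oasl2 are interferon-stimulated genes, which cells switch on when interferon binds its receptor. They are 9 of the 18762 genes with a value per library in mouse heart, and all 9 were among the 11790 genes with at least 1 FPKM (reads per kilobase of transcript and per 1e6 reads) in at least 3 libraries. The 9 were chosen by name, from earlier results of these same libraries, so their levels over the day and between genotypes are given as descriptions, with no test. Tests are given only for other genes.

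The hearts came from C57BL/6 mice, 8 weeks old, fed normal chow under 12 h of light and 12 h of dark, and were flash frozen at 6 zeitgeber times (ZT), written ZT2 to ZT22 in steps of 4 h from the start of light. The labels name 2 genotypes and mark libraries as WT or KO, read here as Reverb fl/fl for WT and as the same floxed allele with MHC+ for KO. Both genotypes therefore carry the floxed allele, and no group carried MHC+ alone, so its own effect and that of Rev-erb loss cannot be told apart. In mouse genetics MHC often means the promoter of a heart myosin gene placed before Cre recombinase, a reading that the labels leave unstated. Rev-erb is a nuclear receptor that represses transcription within the circadian clock. Of the 33 libraries used here, 18 came from WT hearts, 3 at each of 6 times, and 15 from KO-labelled hearts, 3 at each of 5 times. For KO at ZT22 the recorded tables hold counts that belong to KO ZT10, so that group is not analysed here. Whether the 3 libraries of a group are 3 mice is not stated, and errors and p-values therefore measure the spread between libraries, which may be technical.

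Type I and type III interferons bind receptors coupled to the kinases Jak1 and Tyk2, which phosphorylate transcription factors such as Stat2. Stat2 joins Irf9 in a complex that binds the interferon-stimulated response element, a short repeat of GAAA in promoters. Interferon gamma acts in part through Irf1, and drives a partly different set that includes guanylate-binding proteins and the class I antigen presentation machinery. In the heart, macrophages, endothelial cells, fibroblasts and muscle cells can all respond, and low activity is present without infection.

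The promoters of the 9 genes are shown for that element. RefSeq promoter windows (GRCm38.p6, 250 bases before to 50 bases after the annotated start) were at hand for 7 of the 9, all but Usp18 and Rtp4. The letters GAAANNGAAA, with N for any base, were searched on both strands, overlaps counted, and occurred for 4 of the 7 genes. The windows of Irf7, Ifit2 and Oasl2 held no match, which says only that these letters are not there. A gene was counted if any of its windows held the letters. This was so for 27 of 66 other interferon-stimulated genes (40.9%), against 289 of 9412 genes past the expression filter (3.07%). Counted by window and not by gene, the letters were in 978 of all 32851 windows (2.98%). The following 60 bases of each matching promoter are given 5′ to 3′ along the strand of the gene, with the matches in capitals.
Isg15, chr4:156200856-156200915, minus strand: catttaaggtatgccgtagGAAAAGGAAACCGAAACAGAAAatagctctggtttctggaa
Bst2, chr8:71537565-71537624, minus strand: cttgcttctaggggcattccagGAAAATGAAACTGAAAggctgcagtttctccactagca
Ifit3, chr19:34583365-34583424, plus strand: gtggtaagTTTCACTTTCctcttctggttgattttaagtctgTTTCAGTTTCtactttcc
Ifit1, chr19:34640769-34640828, plus strand: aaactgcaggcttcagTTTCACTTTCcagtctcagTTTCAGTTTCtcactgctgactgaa
In Isg15 there were 3 overlapping matches, which begin 78, 72 and 66 bases before the start. Bst2 held 2 overlapping matches at 130 and 124 bases before its start. In Ifit3 and Ifit1 the letters lie on the opposite strand, as 2 separate copies in each, at 156 and 122 and at 104 and 85 bases before the start. The Ifit3 bases lie inside the annotated span of that gene, which begins at 34583119. Its distances are therefore from an annotated start further along the gene.

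Read depth, worked out from the smallest step between FPKM values, was 15.02 to 17.2 M reads (M, 1e6) in KO-labelled and 13.7 to 15.7 M in WT libraries. At that depth a library held from about 40 reads for Isg15 and Usp18 to 552 for Ifit2, and counting error alone at the median was 13.1% for Isg15 and Usp18 and 5.20% for Ifit2. Nr1d1, which encodes Rev-erb alpha, was higher rather than lower in KO-labelled hearts (236 against 41.3 FPKM over the 5 shared times). A single value per gene does not test a deletion, and the libraries are called KO-labelled for that reason. Of the 50-base windows in annotated Ifit3 transcripts, 51.2% also occur in its near copy Ifit3b, and the deposited expected counts of Ifit3 are not whole, so the level of Ifit3 is uncertain. The shared part was 11.6% for Rtp4, whose annotated span also overlaps Masp1, and 7.13% for Ifit1, whose span overlaps Ifit1bl1. Reads of overlapping genes cannot be told apart without strand, which the labels do not mention.

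In KO-labelled hearts each of the 9 genes had its highest group mean at ZT6, as did 25.6% of all genes tested. In WT hearts 8 of the 9 were highest at ZT22 (all genes 18.4%), and Ifit2 was highest at ZT10 (all genes 23.4%), through a single high library. No KO-labelled group at ZT22 was analysed, so a KO-labelled maximum at that time could not be seen. The lowest WT mean was at ZT2 for Ifit2, Ifit3, Irf7, Usp18 and Rtp4, at ZT6 for Ifit1, and at ZT14 for Bst2 and Oasl2. Isg15 was lowest at ZT14 by mean FPKM and at ZT6 by mean log2, with 5.05 and 5.09 FPKM at those times. The 9 genes together came to 106 FPKM in KO-labelled hearts at ZT6 (91.0 to 121 over 3 libraries) and 69.1 FPKM in WT hearts at ZT6 (64.7 to 75.2). At ZT10 the order was the other way, with 67.8 FPKM in KO-labelled (64.6 to 70.4) and 80.9 FPKM in WT hearts (75.6 to 87.4). Fewer cells of a type and less RNA per cell cannot be told apart in whole hearts.

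**Figure D1:**
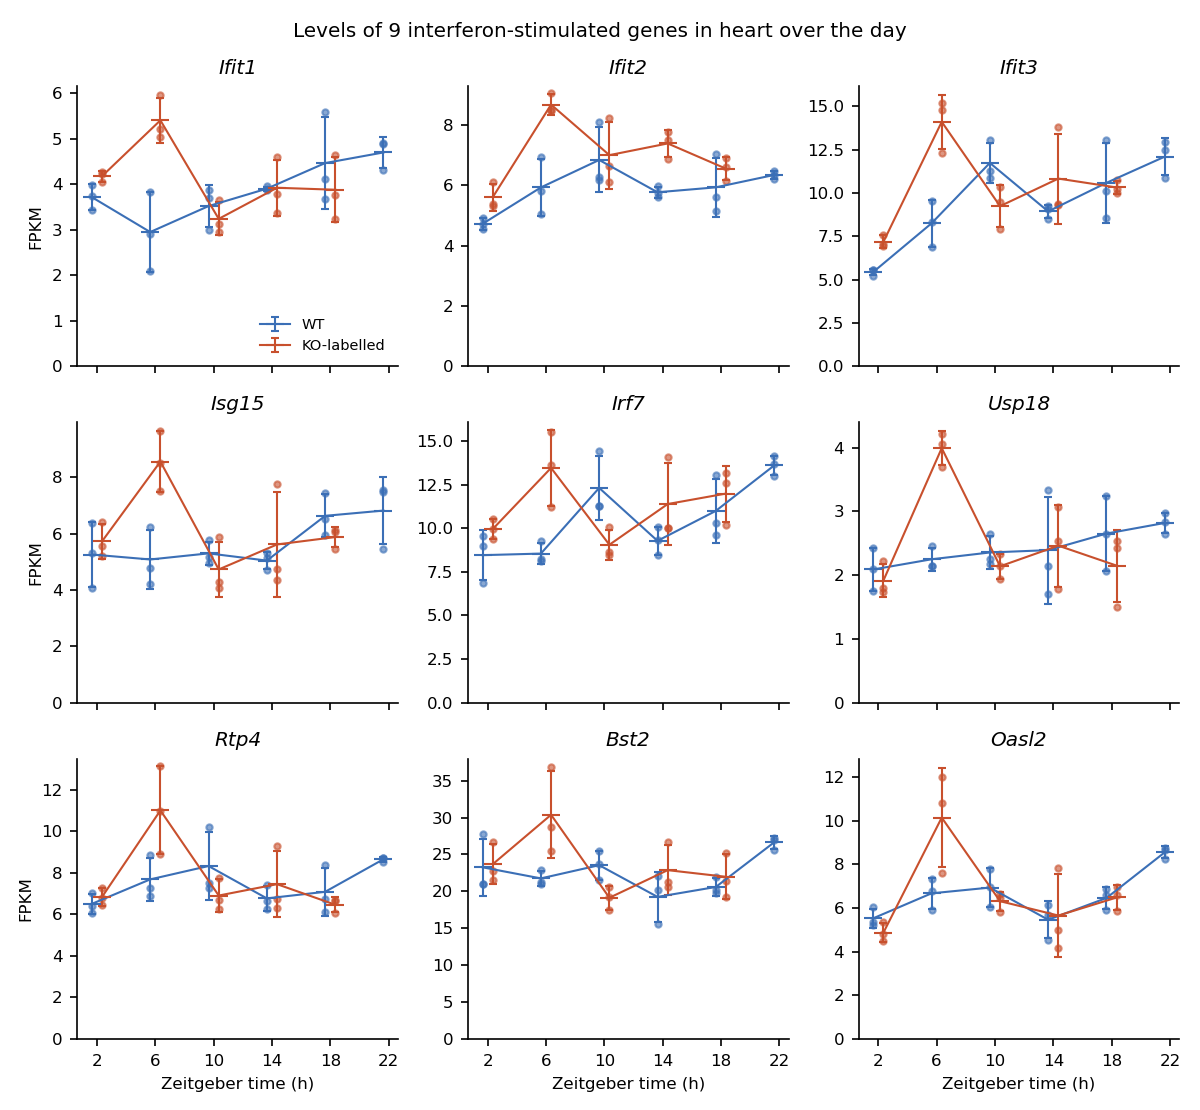
Level (FPKM, linear axis from 0) of each of the 9 genes against zeitgeber time in hours, with 1 point per library and bars for the mean ± SD of 3 libraries (blue WT, red KO-labelled). The KO-labelled points at ZT6 lie above the WT points at ZT6 in every panel, and the WT means end the day at or near their highest at ZT22.

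Irf7, NCBI Gene 54123 (chromosome 7, 141263183 to 141266499, GRCm38.p6), encodes the transcription factor that amplifies production of type I interferon. Its level at ZT6 was 15.5, 11.2 and 13.6 FPKM in the KO-labelled libraries and 8.13, 9.25 and 8.26 FPKM in the WT libraries. All 3 KO-labelled libraries were above all 3 WT libraries. At ZT10 the KO-labelled libraries had 8.63, 10.1 and 8.48 FPKM and the WT libraries 11.3, 11.3 and 14.4 FPKM, so the order was reversed, again with no overlap. On the log2(FPKM + 1) scale used for all differences here, KO minus WT was 0.59 ± 0.13 (SE, n = 3 libraries per genotype) at ZT6 and -0.40 ± 0.13 at ZT10. In WT hearts Irf7 had 8.46 ± 1.4 FPKM (SD, n = 3) at ZT2 and 13.6 ± 0.57 at ZT22, a difference of 0.64 log2. At ZT14 the KO-labelled libraries had 14.1, 10.03 and 10.04 FPKM, and a single library was as high as at ZT6.

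The Ifit genes stand side by side on chromosome 19 and encode proteins with tetratricopeptide repeats that bind foreign RNA and block its translation. Ifit1 recognises RNA without the cap marks of the host, and Ifit2 and Ifit3 associate with it. For Ifit1 (NCBI Gene 15957, chromosome 19, 34640889 to 34650009) the ZT6 libraries had 5.97, 5.21 and 5.05 FPKM in KO-labelled hearts and 2.92, 3.84 and 2.10 in WT hearts. This was the largest of the 9 differences at ZT6 in log2 terms (0.72 ± 0.13), and the WT level at that time, 2.95 ± 0.87 FPKM, was the lowest of any group. Ifit1 at ZT10 had 2.95, 3.65 and 3.13 FPKM in KO-labelled and 2.99, 3.71 and 3.87 in WT libraries, which overlap.

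Ifit2 (NCBI Gene 15958, chromosome 19, 34550550 to 34576534) had its highest WT mean at ZT10, where the other 8 had theirs at ZT22. That order rested on 1 high library at ZT10, as the WT libraries at ZT22 had 6.34, 6.21 and 6.47 FPKM. At ZT6 Ifit2 had 9.06, 8.50 and 8.45 FPKM in KO-labelled against 5.80, 6.94 and 5.04 FPKM in WT libraries (0.49 ± 0.10 log2). At ZT10 the values were 8.24, 6.63 and 6.12 FPKM against 6.17, 6.26 and 8.08 FPKM, with 1 high library in each genotype and a difference of 0.03 ± 0.10. The KO-labelled libraries were also all above WT at ZT2 (5.31 to 6.12 against 4.54 to 4.92 FPKM) and at ZT14 (6.88 to 7.76 against 5.60 to 5.97 FPKM). Its mean difference over the 5 times, 0.23 ± 0.04 log2 (SE, n = 15 libraries per genotype), was the largest of the 9.

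Ifit3 (NCBI Gene 15959, chromosome 19, 34583119 to 34588982) had the widest daily range of the 9 in WT hearts, from 5.44 ± 0.17 FPKM at ZT2 to 12.1 ± 1.1 at ZT22 (1.02 log2). At ZT6 the KO-labelled libraries had 14.8, 12.3 and 15.2 FPKM and the WT libraries 8.33, 9.55 and 6.87 FPKM (0.71 ± 0.13 log2). At ZT10 they had 10.3, 9.46 and 7.92 FPKM against 10.9, 11.3 and 13.03 FPKM (-0.32 ± 0.13 log2). Like Irf7, Ifit3 therefore had KO-labelled libraries all above WT at ZT6 and all below WT at ZT10. At ZT2 the KO-labelled libraries were again above WT, at 6.92 to 7.60 against 5.24 to 5.54 FPKM. Its near copy Ifit3b, which shares the windows counted above, had 4.37 FPKM in KO-labelled and 2.76 in WT hearts at ZT6 (0.51 ± 0.15 log2, limma adjusted p = 0.0113).

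Isg15 encodes a ubiquitin-like protein that is attached to other proteins, and Usp18 encodes the protease that removes it and that also blocks the type I receptor subunit Ifnar2. Isg15 (NCBI Gene 100038882, chromosome 4, 156199424 to 156200818) had 9.66, 7.52 and 8.51 FPKM in KO-labelled and 4.80, 6.25 and 4.21 in WT libraries at ZT6 (0.66 ± 0.16 log2). Its ZT10 values were 4.06, 5.87 and 4.27 FPKM in KO-labelled and 4.97, 5.17 and 5.77 in WT libraries, which overlap. In WT hearts Isg15 was between 5.05 and 5.30 FPKM in its means from ZT2 to ZT14, then 6.64 ± 0.76 at ZT18 and 6.82 ± 1.2 at ZT22. For Usp18 (NCBI Gene 24110, chromosome 6, 121245906 to 121270917) the ZT6 libraries had 3.70, 4.22 and 4.06 FPKM in KO-labelled and 2.14, 2.15 and 2.46 in WT hearts (0.62 ± 0.15 log2). No other KO-labelled group mean of Usp18 was above 2.46 FPKM, and no other library of either genotype was above 3.33 FPKM. At ZT10 Usp18 had 2.33, 2.15 and 1.94 FPKM in KO-labelled and 2.17, 2.25 and 2.65 in WT libraries, which overlap.

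Bst2, Oasl2 and Rtp4 act in other places of the cell. Bst2, also called tetherin, holds budding virus particles at the cell surface, and it is the most abundant of the 9 per length of transcript. Bst2 (NCBI Gene 69550, chromosome 8, 71534255 to 71537472) had 36.9, 25.5 and 28.7 FPKM in KO-labelled and 21.3, 21.04 and 22.9 in WT libraries at ZT6 (0.45 ± 0.13 log2). Its first KO-labelled library was well above the other two, and without it the difference was 0.30. At ZT10 the KO-labelled libraries, with 17.5, 19.3 and 20.7 FPKM, were all below the WT libraries, with 23.6, 25.5 and 21.5 FPKM (-0.29 ± 0.13 log2).

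Oasl2 (NCBI Gene 23962, chromosome 5, 114896926 to 114912245) belongs to the oligoadenylate synthetase family, whose enzymes make the signal that activates RNase L. At ZT6 it had 12.0, 7.62 and 10.8 FPKM in KO-labelled and 6.76, 7.33 and 5.93 in WT libraries (0.52 ± 0.14 log2), and the ranges were separated by 0.29 FPKM. Its daily range in KO-labelled hearts, from 4.87 ± 0.44 FPKM at ZT2 to 10.1 ± 2.3 at ZT6, was the widest of the 9 in that genotype (0.90 log2). At ZT10 Oasl2 had 6.47, 6.64 and 5.83 FPKM in KO-labelled and 6.03, 6.97 and 7.81 in WT libraries, which overlap. Rtp4 (NCBI Gene 67775, chromosome 16, 23520219 to 23614222) encodes a protein that helps some G-protein-coupled receptors to reach the membrane. The ZT6 libraries of Rtp4 had 13.1, 8.89 and 10.98 FPKM in KO-labelled and 7.27, 8.87 and 6.90 in WT hearts (0.46 ± 0.13 log2), so the lowest KO-labelled library was 0.02 FPKM above the highest WT library. At ZT10 the libraries of Rtp4 had 7.77, 6.69 and 6.25 FPKM in KO-labelled and 7.49, 7.26 and 10.2 in WT hearts, which overlap.

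The KO minus WT difference of the 9 genes is given by hour, as a description with no test. At ZT6 it was 0.45 to 0.72 log2 (median 0.59), and the FPKM of the 3 KO-labelled libraries were above those of the 3 WT libraries for 9 of 9 genes, where 28% of all genes tested had that order and 18.5% the opposite one. At ZT10 it was -0.40 to 0.03 (median -0.15), below 0 for 8 of 9, with all KO-labelled libraries below WT for Ifit3, Irf7 and Bst2, an order that 20.8% of all genes had, while 20.1% had the opposite one. At ZT2 the KO-labelled libraries were above WT for 3 of the 9, Ifit1, Ifit2 and Ifit3, against 22.1% of all genes above and 14.1% below. At ZT14 this held for Ifit2 and Ifit3, and Ifit3 did so by 0.06 FPKM (9.30 to 13.8 against 8.50 to 9.24), against 26.3% of all genes above and 15.9% below. At ZT18 the ranges overlapped for all 9, where 24.1% of all genes lay above and 20.5% below. For Ifit3, Irf7 and Bst2 both orders held, above at ZT6 and below at ZT10, as they did for 1.16% of all genes. Averaged over the 5 times the difference was 0.05 to 0.23 log2 (median 0.12), above 0 for all 9, beside a median of 0.02 over all genes tested. Without the ZT6 libraries it was -0.09 to 0.17, above 0 for 4 and below 0 for 5, namely Ifit1, Isg15, Usp18, Rtp4 and Oasl2. Single libraries moved the smaller means by over 1.5 times. Without replicate 1 of KO ZT14 the mean difference was 0.01 for Oasl2, 0.03 for Rtp4 and Usp18 and 0.07 for Isg15. That of Usp18 lay between 0.02 without replicate 1 and 0.09 without replicate 3 of WT ZT14, and that of Oasl2 reached 0.09 without replicate 2 of KO ZT6. Within these ranges, means also moved by over 1.5 times without replicate 2 of KO ZT14, replicate 1 or 3 of KO ZT18 or replicate 3 of WT ZT18 for Usp18, without replicate 1 of KO ZT6 for Rtp4 and Oasl2, and without replicate 2 of KO ZT14 or replicate 3 of WT ZT14 for Oasl2. The median over all genes was 0.03 at ZT6 and -0.01 at ZT10. The genes were chosen with these contrasts known, and nothing is read from the counts.

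**Figure D2:**
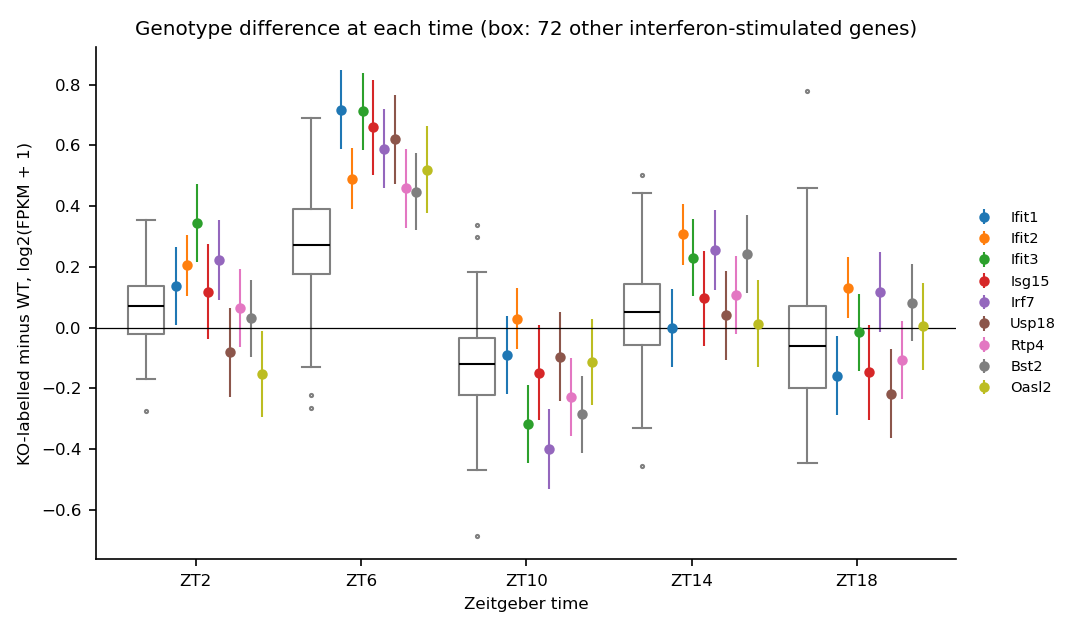
Difference of KO-labelled minus WT group means, in log2(FPKM + 1), at the 5 times with both genotypes, for the 9 genes (coloured points, bars are the SE of the fit) and for 72 other interferon-stimulated genes (boxes: quartiles and median, whiskers to 1.5 times the box, dots beyond). The points stand between 0.45 and 0.72 at ZT6 and between -0.40 and 0.03 at ZT10, and the box medians are 0.27 and -0.12.

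A mean of the 9 genes, each standardised over the 33 libraries (in SD units), put the 11 groups in order. KO-labelled hearts at ZT6 were highest at 1.72 ± 0.58 (SD, n = 3), and their lowest library, at 1.13, was above every library of the other 10 groups. WT hearts at ZT22 followed at 0.80 ± 0.10, with libraries from 0.70 to 0.90. Next came WT at ZT10 (0.20), WT at ZT18 (0.07), KO at ZT14 (0.05) and KO at ZT18 (-0.06), which do not differ beyond the spread of their libraries. The lower groups were KO at ZT2 (-0.46), KO at ZT10 (-0.49), WT at ZT6 (-0.50) and WT at ZT14 (-0.51), which also overlap. WT at ZT2 was lowest at -0.83 ± 0.43. At ZT14 the 3 KO-labelled libraries spread from -0.66 to 1.09, wider than any other group.

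Single libraries carried much of the spread, and the 9 genes moved with them. Replicate 1 of WT at ZT18 was the highest of its group for 9 of 9 genes, replicate 1 of KO at ZT14 for 8, and replicate 3 of WT at ZT10 for 8. Replicate 1 of KO at ZT6, replicate 2 of WT at ZT6 and replicate 2 of KO at ZT18 were each highest for 7. Over the 33 libraries the 36 pairs of the 9 genes had a median Pearson correlation of 0.62, from 0.29 for Ifit2 with Bst2 to 0.84 for Rtp4 with Oasl2. After the mean of its group was subtracted from each library, the median was 0.55, from -0.08 for Usp18 with Bst2 to 0.84 for Ifit3 with Rtp4. These are descriptions over libraries that share depth, tissue and groups.

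**Figure D3:**
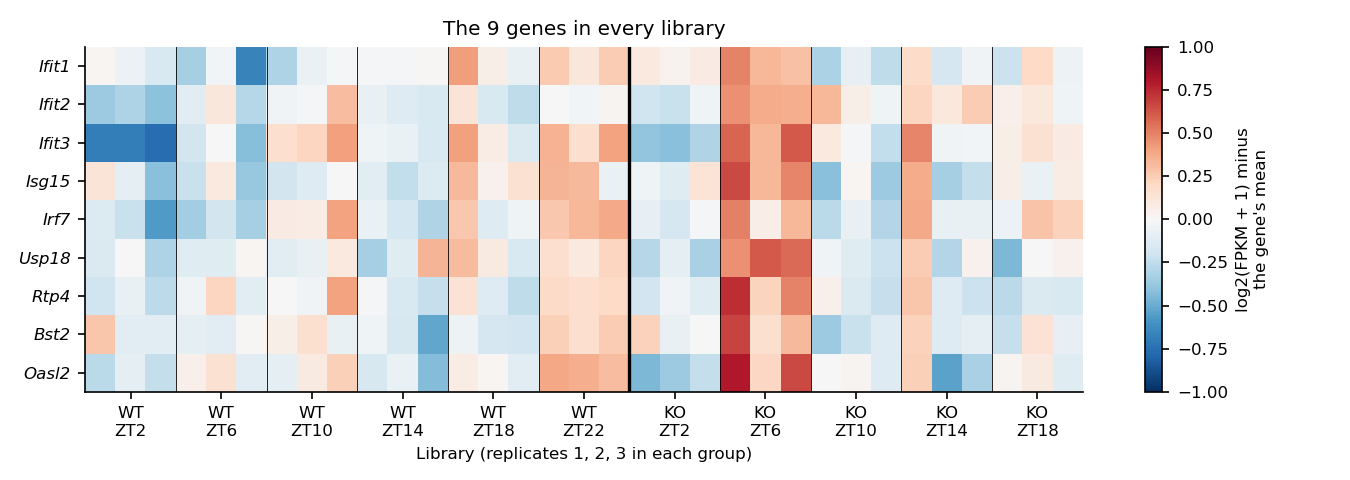
Each of the 9 genes (rows) in each of 33 libraries (columns, replicates 1 to 3 within each group, WT left and KO-labelled right of the thick line), as log2(FPKM + 1) minus the mean of the gene over all libraries. The 3 KO ZT6 columns are red for all 9 genes, and within a group whole columns shade together, as in replicate 1 of KO ZT14 and of WT ZT18.

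A 24 h cosine was also fitted. In WT hearts its amplitude was largest for Ifit3 (0.27 ± 0.11 log2) and Ifit1 (0.24 ± 0.07), with fitted peaks at 15.5 h and 19.3 h after lights on. The WT means of Ifit3 were 11.7 FPKM at ZT10, 8.94 at ZT14, 10.6 at ZT18 and 12.1 at ZT22. Its fitted peak thus lies beside a lower mean between higher ones, a course that a single 24 h cosine cannot follow. The amplitude of Rtp4 was 0.02 ± 0.08, although its WT libraries ranged from 6.08 to 10.2 FPKM. In KO-labelled hearts, with 5 times, amplitudes were 0.06 ± 0.12 for Irf7 to 0.22 for Usp18, Rtp4 and Oasl2, and fitted peaks lay between 2.55 h for Ifit1 and 21.8 h for Irf7 even though all 9 were highest at ZT6.

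Of the 10 genes most like the mean of the 9 over the 33 libraries, all but Ifi47 stood on a list of interferon genes drawn up for this work. The highest Pearson correlations were those of Rnf213, a large ubiquitin ligase (r = 0.88, Spearman rho = 0.80), Trim30a (0.82, rho = 0.65), Ly6e (0.82, rho = 0.84), Ifi44 (0.81, rho = 0.72) and Ddx58, the RNA sensor RIG-I (0.78, rho = 0.75). Ifit3b, Oasl1, Adar, Stat2 and Ifi47 completed the first 10, from 0.76 down to 0.73. Without the 2 libraries farthest from the median, both KO at ZT6, these 10 had correlations of 0.59 to 0.83. With group means subtracted, the first 10 were Rtn4r, Gbp3, Lpin1, Rnf213, Gvin1, Rbm42, Ifi44, Rsad2, Map7d1 and Stat2, from 0.78 to 0.70, and Rnf213, Ifi44 and Stat2 were on both lists. A correlation above 0.5 over the 33 libraries was found for 42 of the 72 other interferon-stimulated genes tested and for 321 of 11781 genes outside the 9.

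Tests were run on 72 other interferon-stimulated genes, of 82 listed. This list and the other interferon lists below were also drawn up with earlier results of these libraries known. The lists overlap, as genes such as Ddx58, Irf9, Irf1 and Ifnar2 stand on more than a single list, so their counts are not separate. Their results at ZT6 and ZT10 were added after seeing the data, so the calls are not independent of the choice. At ZT6 limma called 31 of them higher in KO-labelled hearts and none lower (Benjamini-Hochberg adjusted p under 0.05 over all genes), beside 19.1% of all genes higher and 12.7% lower. At an unadjusted p under 0.05 limma had 46 higher and none lower. The median difference was 0.27 log2, against 0.03 over all genes. Without replicate 1 of KO ZT6 the count was 19. Lgals3bp, a secreted scavenger receptor protein, rose from 24.8 FPKM in WT to 40.5 FPKM in KO-labelled hearts at ZT6 (0.69 ± 0.10 SE, adjusted p = 4.35e-06). Parp9 and Dtx3l, partners in an ADP-ribosylation complex, rose from 8.35 to 13.6 FPKM (0.64 ± 0.07, adjusted p = 7.42e-08) and from 5.38 to 8.62 FPKM (0.59 ± 0.08, adjusted p = 4.44e-07). Rnf213 rose from 2.41 to 3.61 FPKM (0.43 ± 0.08, adjusted p = 0.00017) and Trim30a from 3.43 to 5.04 FPKM (0.45 ± 0.09, adjusted p = 0.000174). Rsad2, also known as viperin, had 6.56 FPKM in WT and 5.77 in KO-labelled hearts (-0.13 ± 0.19, adjusted p = 0.663).

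At ZT10 2 of the 72 were higher and 11 were lower in KO-labelled hearts, beside 14.3% and 13.5% of all genes, with a median of -0.12 log2. The 11 became 6 without replicate 3 of WT ZT10 and 7 without replicate 3 of KO ZT10. Parp10 fell from 6.08 FPKM in WT to 4.17 FPKM in KO-labelled hearts at ZT10 (-0.45 ± 0.11, limma adjusted p = 0.00225) and the RNA sensor Ifih1 from 4.28 to 3.05 FPKM (-0.38 ± 0.09, adjusted p = 0.00207). Parp9 and Dtx3l were also called higher in KO-labelled hearts at ZT10 (0.34 ± 0.07, adjusted p = 0.000741, and 0.30 ± 0.08, adjusted p = 0.00314). At the other times 4 were called higher and 1 lower at ZT2, 4 and 2 at ZT14, and 5 and 9 at ZT18. Of all genes, 18.6% and 11.3%, 19.2% and 11.8%, and 17.7% and 14.4% were called at those times.

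Averaged over the 5 times, 12 of the 72 were higher and 6 lower, beside 33.2% and 23.4% of all genes. The largest increases were those of Parp9 (8.72 to 12.2 FPKM, 0.45 ± 0.03, n = 15 per genotype, limma adjusted p = 1.69e-12), Dtx3l (0.37 ± 0.03), Lgals3bp (0.25 ± 0.05), Ifi211 (0.23 ± 0.08) and Ifi27l2a (0.22 ± 0.09). Among the decreases were those of the chemokine gene Ccl5 (1.34 to 0.927 FPKM, -0.28 ± 0.10, adjusted p = 0.0172), the dNTPase gene Samhd1 (-0.22 ± 0.03), Ogfr (-0.12 ± 0.03) and Trim25 (-0.11 ± 0.03). Without the ZT6 libraries, an alternative added after seeing the data, 5 were higher and 13 lower. Over all genes 3916 were higher and 2763 lower, which became 3349 and 3341 with libraries scaled by median ratios and 3287 and 3418 after quantile scaling. Under either scaling 8 of the 72 were higher and 9 lower, so which direction held more of them depended on the scaling.

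Time of day was called for 41 of the 72 in WT hearts (all genes 58.2%) and for 42 in KO-labelled hearts (45.7%, and 26 of the 72 without replicate 1 of KO ZT6). In WT hearts 26 of the 72 had their highest mean at ZT10 (36.1%, all genes 23.4%), 23 at ZT22 (31.9%, all genes 18.4%) and 2 at ZT6 (2.78%, all genes 17.2%), and 36 had their lowest at ZT2 (50%, all genes 23.3%). In KO-labelled hearts, which had no group at ZT22, 56 of the 72 were highest at ZT6 (77.8%, all genes 25.6%) and none at ZT10. Uba7, the enzyme that activates Isg15, was highest at ZT10 in WT hearts (7.79 FPKM, against 4.42 at ZT2, limma adjusted p over time = 1.47e-05) and at ZT6 in KO-labelled hearts. Ly6e, the most abundant of the genes like the 9, had 99.8 FPKM at ZT2 and 145 FPKM at ZT22 in WT hearts. A 24 h cosine was called for 14 of the 72 in WT hearts (all genes 38.6%) and 7 in KO-labelled hearts (26.9%).

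The interaction of genotype with time asks whether the difference between genotypes changes over the day. It was called for 15 of the 72 (20.8%) and for 5.37% of all genes. The 15 became 8 without replicate 1 or replicate 3 of KO ZT6, 9 without replicate 1 and 7 without replicate 2 of WT ZT6, and none without all ZT6 libraries. Genes called included Lgals3bp (limma adjusted p = 0.00374), Rnf213 (0.0102), Ifih1 (0.0106) and Parp10 (0.0133).

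**Figure D4:**
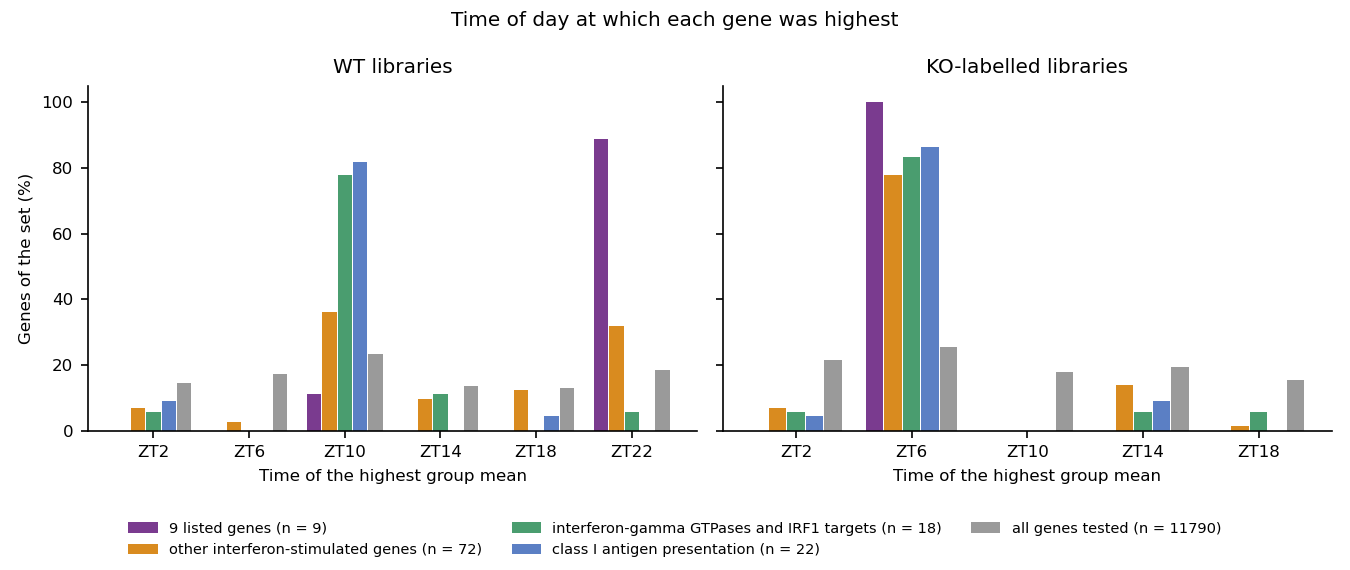
Share of genes (%, from 0) whose group mean is highest at each zeitgeber time, in WT (left, 6 times) and KO-labelled libraries (right, 5 times), for the 9 genes, 3 other gene lists and all 11790 genes tested. The 9 genes are highest mostly at ZT22 in WT, and the interferon-gamma and class I lists mostly at ZT10. In KO-labelled libraries the 9 genes and the 3 lists all have their highest bar at ZT6. All genes tested also have their highest bar at ZT10 in WT (23.4%) and at ZT6 in KO-labelled libraries (25.6%).

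Targets of interferon gamma and Irf1 were mostly highest at ZT10 in WT hearts, where of the 9 only Ifit2 was, through a single high library. Of 18 tested, 14 were highest at ZT10 in WT hearts and 15 at ZT6 in KO-labelled hearts. At ZT10 limma called 10 of the 18 lower in KO-labelled hearts and none higher (14 and none at an unadjusted p under 0.05), beside 13.5% of all genes lower and 14.3% higher, with a median of -0.42 log2. The count was 6 without replicate 1 of KO ZT10, 5 without replicate 2 of KO ZT10 and 5 without replicate 3 of WT ZT10. Iigp1, an immunity-related GTPase, had 46.5 FPKM in WT and 17.0 in KO-labelled hearts at that time (-1.43 ± 0.21, adjusted p = 3.86e-06), and Gbp6, a guanylate-binding protein, 21.4 and 8.22 FPKM (-1.27 ± 0.19, adjusted p = 7.6e-06). Both were lower over the 5 times as well, as were Igtp and Irgm2 (4 of 18, or 22.2%, with Socs1 the 1 gene higher, 5.56%), beside 23.4% of all genes lower and 33.2% higher, so the share lower was near that of all genes. At ZT6 limma called 4 of the 18 higher and none lower (9 and none at an unadjusted p under 0.05), beside 19.1% of all genes higher and 12.7% lower, a count that moved between 0 without replicate 1 of KO ZT6 and 8 without replicate 2 of KO ZT6, and was 2 without replicate 3 of KO ZT6, 1 without replicate 1 of WT ZT6 and 2 without replicate 3 of WT ZT6. The interaction was called for 4, Irgm2 (adjusted p = 0.0127), Igtp (0.0198), Gbp9 (0.0399) and Iigp1 (0.0480), which is 22.2% beside 5.37% of all genes. Time of day was called for 13 of the 18 in WT hearts (72.2%, all genes 58.2%) and 7 in KO-labelled hearts (38.9%, all genes 45.7%).

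The genes of class I antigen presentation, which load peptides on H2 molecules, were also mostly highest at those hours. Of 22 tested, 18 were highest at ZT10 in WT hearts and 19 at ZT6 in KO-labelled hearts. At ZT10 limma called 17 lower in KO-labelled hearts and none higher (19 and none at an unadjusted p under 0.05), beside 13.5% of all genes lower and 14.3% higher, with a median of -0.38 log2, and 11 were lower without replicate 2 of KO ZT10. Psmb10, a subunit of the immunoproteasome, had 37.7 FPKM in WT and 25.7 in KO-labelled hearts at ZT10 (-0.53 ± 0.08, limma adjusted p = 1.24e-05), and H2-Q4 47.5 and 33.3 FPKM (-0.51 ± 0.10, adjusted p = 0.000437). At ZT6 6 were higher and 2 lower (27.3% and 9.09%, all genes 19.1% and 12.7%), and 3 were higher without replicate 1 of KO ZT6 or without replicate 2 of WT ZT6. The peptide transporter gene Tap1 had 7.01 FPKM in KO-labelled and 4.61 in WT hearts at ZT6 (0.51 ± 0.16, adjusted p = 0.0169) and 5.63 and 8.19 FPKM at ZT10 (-0.47 ± 0.16, adjusted p = 0.0296). Over the 5 times 7 were lower and 2 higher (31.8% and 9.09%, all genes 23.4% and 33.2%). The decreases were led by the proteasome activator gene Psme1 (143 to 109 FPKM, -0.38 ± 0.03, adjusted p = 2.95e-11). The increases were those of H2-T22 (15.9 to 22.8 FPKM, 0.54 ± 0.07) and H2-Q6, which is listed at 0 in every WT library. H2-Q and H2-T genes are near copies of each other, and how reads were split between them is not given in the sources used here. The letters of the response element were found for 7 of 12 genes with a promoter window in the interferon-gamma list and for 3 of 19 in the class I list.

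Interferon genes themselves were hardly detected. The 5 with values, Ifnb1, Ifnab, Ifnk, Ifnz and Ifng, were each under 1 FPKM in every library, and their sum ranged from 0 to 0.48 FPKM in KO-labelled and from 0 to 0.25 FPKM in WT libraries. Among 9 receptors and kinases, 4 were lower and 2 higher over the 5 times (44.4% and 22.2%, all genes 23.4% and 33.2%). The lower ones were the shared subunit Il10rb (104 to 57.4 FPKM, -0.85 ± 0.02, limma adjusted p = 1.91e-21), Jak1 (39.5 to 30.0 FPKM, -0.39 ± 0.03), Ifngr2 (138 to 106 FPKM, -0.37 ± 0.03) and Ifnar2 (30.9 to 27.1 FPKM, -0.18 ± 0.03), and the higher ones Tyk2 (0.14 ± 0.04) and Ifngr1 (0.09 ± 0.03). Among 16 nucleic acid sensors and adaptors, 5 were higher and 3 lower (31.2% and 18.8%, near the 33.2% and 23.4% of all genes), with Rnaseh2b (6.85 to 11.1 FPKM, 0.62 ± 0.03), Ticam1 (0.32 ± 0.04) and Traf3 (0.29 ± 0.03) the largest increases. Ddx58 stood at 6.02 FPKM in KO-labelled and 4.2 in WT hearts at ZT6 (0.43 ± 0.08, adjusted p = 0.000118) and had an interaction (adjusted p = 0.0146).

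Of 9 interferon transcription factors other than Irf7, Stat2 and Irf3 were higher over the 5 times (0.13 ± 0.05 and 0.12 ± 0.04), 22.2% beside 33.2% of all genes. Irf9 was highest at ZT10 in WT hearts (12.2 FPKM) and at ZT6 in KO-labelled hearts (12.0 FPKM), with 8.76 FPKM in KO-labelled hearts at ZT10 (-0.42 ± 0.10, limma adjusted p = 0.00239). Irf1 had 14.2 FPKM in WT and 10.3 in KO-labelled hearts at ZT10 (-0.44 ± 0.12, adjusted p = 0.00799). Among 13 negative regulators, a list that holds both Rev-erb genes, 4 were higher and 5 lower over the 5 times (30.8% and 38.5%, all genes 33.2% and 23.4%). Irf2bp2, a partner of the repressor Irf2, was 5.92 FPKM in WT and 10.4 in KO-labelled hearts at ZT6 (0.73 ± 0.10, adjusted p = 1.01e-06).

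Markers of other cell types were set beside these values as whole lists. Heart muscle markers dominated every library, with a sum of 69117 to 75906 FPKM. The 11 macrophage and monocyte markers summed to 208 to 230 FPKM in KO-labelled and 208 to 242 FPKM in WT libraries at ZT6, and limma called none of the 10 tested at that time, also at an unadjusted p under 0.05. Over the 5 times 1 of the 10, Cd68, was higher. All 9 T and NK cell markers and all 4 B cell markers with values were under 1 FPKM in every library. Of 5 plasmacytoid dendritic cell markers other than Bst2, Siglech, Ccr9 and Klk1 were under 1 FPKM in every library. The other 2, Tcf4 and Cox6a2, were tested, and limma called neither at ZT6. The 5 markers summed to 3709 to 4402 FPKM in KO-labelled and 4024 to 4969 FPKM in WT libraries. Nearly all of that sum is Tcf4 and Cox6a2, so it is not read as a level of these cells. At ZT6 fibroblast markers had 4 of 8 called higher and none lower (6 and none unadjusted), endothelial markers 1 of 8 each way, smooth muscle markers 2 of 7 higher, and stress genes 1 of 11 lower, beside 19.1% of all genes higher and 12.7% lower. Of 7 neutrophil markers 4 were under 1 FPKM in every library, and the sum ranged from 0.62 to 23.5 FPKM. At ZT6 the red blood cell markers summed to 2942 to 3312 FPKM in KO-labelled and 4909 to 5589 FPKM in WT libraries, and 5 of 5 tested were lower. At ZT2 the order was reversed, with 5 of 5 higher in KO-labelled hearts. KO-labelled libraries at ZT6 also had the most genes above 0, 15645 to 15712, against 15204 to 15605 in the other libraries. The part of red blood cell RNA, fibroblast RNA and gene detection in the ZT6 difference was not tested.

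**Figure D5:**
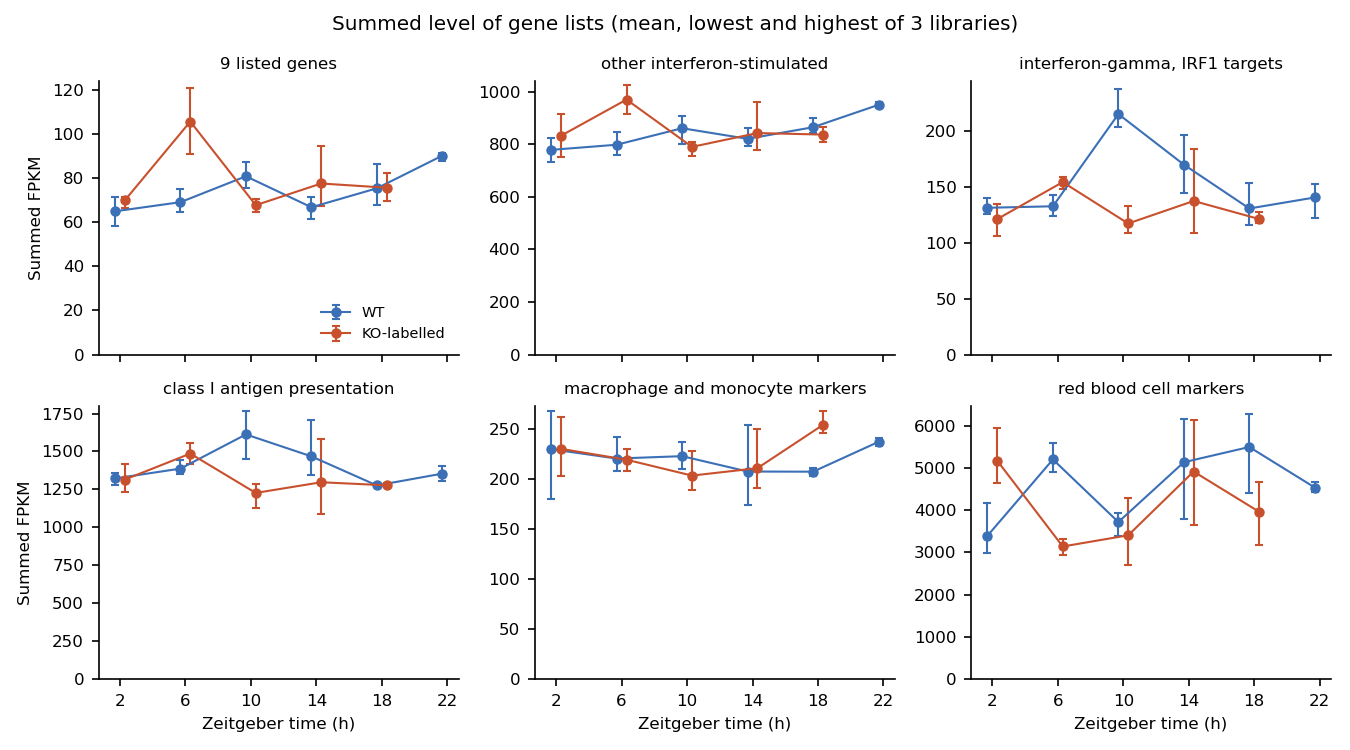
Summed FPKM (linear axis from 0) of 6 gene lists against zeitgeber time in hours, as the mean of 3 libraries with bars from the lowest to the highest library (blue WT, red KO-labelled). The 9 genes and the other interferon-stimulated genes have their highest mean in KO-labelled libraries at ZT6. For the other interferon-stimulated genes the range there (916 to 1024 FPKM) overlaps that of WT at ZT22 (936 to 959 FPKM). No KO-labelled group at ZT22 was analysed. Macrophage markers are alike in both genotypes at ZT6, and red blood cell markers are lower in KO-labelled libraries at ZT6 and higher at ZT2.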

How the data were processed

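RNA was measured by sequencing in 33 mouse heart libraries, 3 per group, extracted with Trizol and prepared with an Illumina TruSeq kit, per the labels. The authors deposited FPKM values per NCBI Gene ID, a unit read from the values. For 3 tables recorded under KO ZT22 the authors deposited expected counts of the KO ZT10 libraries. Set against FPKM, these expected counts gave the gene lengths behind the depth, the reads per gene and the counting error. They also showed that the counts of Ifit3 are not whole. Their totals were set beside the depth of the KO ZT10 libraries, a check that is not independent. The build is mm10, per the submitters' processing notes, and no source used here names an aligner or a counter. Of 18762 IDs, 139 had no symbol in RefSeq. A single repeated column was not used, and 3 tables of WT ZT14 name another replicate number in their header than the record, which was followed.

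Values were taken as log2(FPKM + 1). limma 3.58.1 in R 4.3.3 (trend, 1 mean per group, 22 residual degrees of freedom) was fitted to 11790 genes, those that reached 1 FPKM in 3 or more libraries, and tested on simulated data. p-values were adjusted over all of them by Benjamini-Hochberg, with a threshold of 0.05. The contrasts were KO minus WT at each of 5 times and their mean, time within each genotype, their interaction and a 24 h cosine. Errors of differences are SE from the fit. Depth is the count of reads implied by FPKM steps, 13.7 to 17.2 M, and covers counting error only.

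The 9 genes and the lists of other genes were chosen with earlier results of these data known. Named beside the 9 are, per interferon list, the 5 largest called increases and decreases in the mean difference and the 5 smallest called p over time and for the interaction, short lists whole, and the 10 genes most alike. Their values at ZT6 and ZT10 were added after seeing the data. Alternatives were the pseudocount, the filter, the scaling, the replicate block and leaving out each library. KO at ZT22 was not analysed here, and 1 gene that the rule names is not reported here, although list counts include it.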

Additional observations from a re-analysis of the deposited data

Results flagged for a closer look

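The difference between genotypes changed with the hour (genotype by time interaction of limma, adjusted over all genes) for the following genes outside the 9, named by rule. Among other interferon-stimulated genes these were Lgals3bp (adjusted p = 0.00374), Rnf213 (0.0102), Ifih1 (0.0106) and Parp10 (0.0133). Among interferon-gamma targets they were Irgm2 (adjusted p = 0.0127), Igtp (0.0198), Gbp9 (0.0399) and Iigp1 (0.0480). In class I antigen presentation they were H2-T23 (adjusted p = 0.00297), H2-Q4 (0.00688), Tap2 (0.0116), Erap1 (0.0239) and H2-T22 (0.0396). On the remaining lists they were the receptor subunit Il10rb (limma adjusted p = 0.0431), the sensor Ddx58 (0.0146), the adaptor Ticam1 (0.0295), the transcription factor Irf9 (0.0412) and the regulators Nr1d2 (7.47e-06), Nr1d1 (7.5e-06) and Irf2bp2 (0.00211). Of these, Ddx58 and Irf9 also stand on the list of other interferon-stimulated genes.

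For 3 of the 9 genes all KO-labelled libraries were above WT at ZT6 and all below WT at ZT10, an order that 1.16% of all genes tested had. The 3 genes were chosen with these contrasts known, and nothing is read from the count. The difference at ZT6 less that at ZT10 was 1.03 log2 for Ifit3, 0.99 for Irf7 and 0.73 for Bst2, and was not tested.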

How the results depend on the processing

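With each library left out in turn, 891 recomputed genotype differences and 594 daily ranges of the 9 genes moved by less than their spread. Many of these left out a library that does not enter the value, where no change was possible. These counts therefore say little about stability, and the larger moves of the mean differences are given above. Under the other settings 195 differences did the same and 6 moved further, as did 117 and 12 ranges. The ZT10 difference of Ifit2, 0.03, lay on both sides of 0, from -0.08 to 0.14 with a library left out. Same-numbered libraries of the 2 genotypes did not deviate together (correlations from -0.10 to 0.06 over 15 pairs), and with a replicate block 31 of the 72 other interferon-stimulated genes were higher at ZT6, 11 higher and 7 lower in the mean, 42 called over time in WT, 40 in KO, and 13 for the interaction. The cause of the following moves was not tested, beyond fewer genes or libraries in the fit. With a mean of at least 5 FPKM required, the 72 became fewer, and 6 were higher in the mean, 16 higher at ZT6, 20 called over time in WT, 20 in KO and 8 for the interaction. With no filter the interaction was called for 9 of them. Without the ZT6 libraries, chosen after seeing the data, 5 were higher and 13 lower in the mean, 8 were called over time in KO, 0 of them for the interaction, and 332 of all genes for the interaction. With each library left out, genes called for the interaction numbered 411 to 964 over all genes and 7 to 18 in this list. The list had 26 to 45 genes called over time in KO, 19 to 36 higher at ZT6 and 6 to 12 lower at ZT10. Interferon-gamma targets had 0 to 8 higher at ZT6 and 5 to 11 lower at ZT10, and class I genes 3 to 8 and 11 to 18. Lists and results at ZT6 and ZT10 were added after seeing the data. Counting error alone was 13.1% for Isg15 and Usp18 at their median of reads, so differences of that size between single libraries are not detectable.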
